A study of Mus musculus with 6 samples.

Results

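The 35 genes described here encode nuclear subunits of mitochondrial complex I, the NADH:ubiquinone oxidoreductase of the respiratory chain. They were taken by name from the Ndufa, Ndufab, Ndufb, Ndufc, Ndufs and Ndufv families and looked up by Ensembl gene ID; the rule itself uses no expression value. Of the 35, 34 were found among the 12235 genes of the tables and 33 could be tested for a difference between Hspa9 cKO and WT DN3 thymocytes.

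Complex I takes electrons from NADH, passes them through a flavin and a chain of iron-sulphur clusters to ubiquinone, and pumps protons across the inner mitochondrial membrane. It is L-shaped. The matrix arm holds an NADH-oxidising tip, called the N module, and a ubiquinone-binding base, called the Q module, while the membrane arm is built around subunits encoded in mitochondrial DNA, after which its modules are named ND1, ND2, ND4 and ND5. Core subunits carry out the reaction, and accessory subunits surround them and are needed for assembly or stability. The assignment of subunits to modules used below is background from the mammalian enzyme.

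RNA was sequenced from DN3 thymocytes, early T cell precursors of the thymus, of Hspa9 cKO mice (3 libraries) and WT mice (3 libraries), all 5 weeks old and without treatment. Hspa9 encodes GRP75, an HSP70-family chaperone inside mitochondria, which helps pull imported proteins into the matrix and takes part in iron-sulphur cluster assembly. Cells were sorted as lineage-negative, CD4-, CD8-, CD44- and CD25+. The Cre driver and the strain are not stated in the labels. Nor do the labels tell whether the 3 libraries of a group stem from different mice, so the p-values below reflect library-to-library spread, part or all of which may be technical.

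Expression was deposited as FPKM (a fragment measure that allows for transcript length and sequencing depth) for events of transcript structure, and a gene's level below is the summed FPKM of its transcript starts. No counts were given, so depth is unknown. Summed start FPKM lay between 248014 and 252474 in the Hspa9 cKO libraries and between 256513 and 272918 in the WT libraries, with the highest sum in WT replicate 3. Transcripts that kept exons 2 to 4 of Hspa9 made up 21.3%, 13.6% and 22.9% of the total in the Hspa9 cKO libraries, against 100%, 89.9% and 86.1% in the WT libraries (exact two-sided permutation test, p = 0.1, the smallest that 3 against 3 libraries allow). The total level of Hspa9 did not pass the test (log2 change 0.01, limma adjusted p = 0.951).

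Complex I subunit transcripts lay mostly lower in Hspa9 cKO cells, by small amounts. Ndufb6, Ndufa1, Ndufb7 and Ndufb3, all accessory subunits of the membrane arm, fell. Their changes on the log2(FPKM + 1) scale were -0.36, -0.41, -0.42 and -0.33, which correspond to percent changes of -22.3%, -24.8%, -25.4% and -20.6%. Of the subunits, 4 of the 33 tested passed as lower and 0 as higher (limma, Benjamini-Hochberg adjusted p under 0.05 over all genes; 12 were lower and 0 higher at an unadjusted p under 0.05). Among all 9198 genes tested, 5.61% passed as lower and 8.40% as higher, while 12.3% were lower and 19.1% higher at an unadjusted p under 0.05. The median log2 change was -0.21 over the 33 subunits, against 0.06 over all genes tested, and 26 of the 33 had a negative change, against 43.3% of all genes. In bulk RNA, fewer cells of one type and less RNA per cell cannot be told apart. As deposited, 516 genes were called lower and 773 higher, and this split depended on the scaling. With libraries rescaled by trimmed means of log ratios it was 696 and 606 (7.56% and 6.58%), and with median ratios 666 and 616 (7.24% and 6.70%). The subunits called lower were then 10 and 7, with medians of -0.27 and -0.26.

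The lower level was similar in the 3 Hspa9 cKO libraries. The median deviation of the 33 subunits from their WT means was -0.17, -0.22 and -0.21 on the log2 scale in Hspa9 cKO replicates 1, 2 and 3, and -0.04, -0.08 and 0.14 in WT replicates 1, 2 and 3. The 3 Hspa9 cKO libraries lay close together and below all WT libraries, whereas the WT libraries differed among themselves. WT replicate 3 was the highest library for 23 of the 33 subunits, and without it the subunits' median log2 change was -0.19. For 15 of the 33 subunits, all 3 Hspa9 cKO libraries lay below all 3 WT libraries, against 1445 of all 9198 genes tested (15.7%). For 0 subunits did all 3 lie above, against 23.2% of all genes, and the other 18 overlapped.

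**Figure D1:**
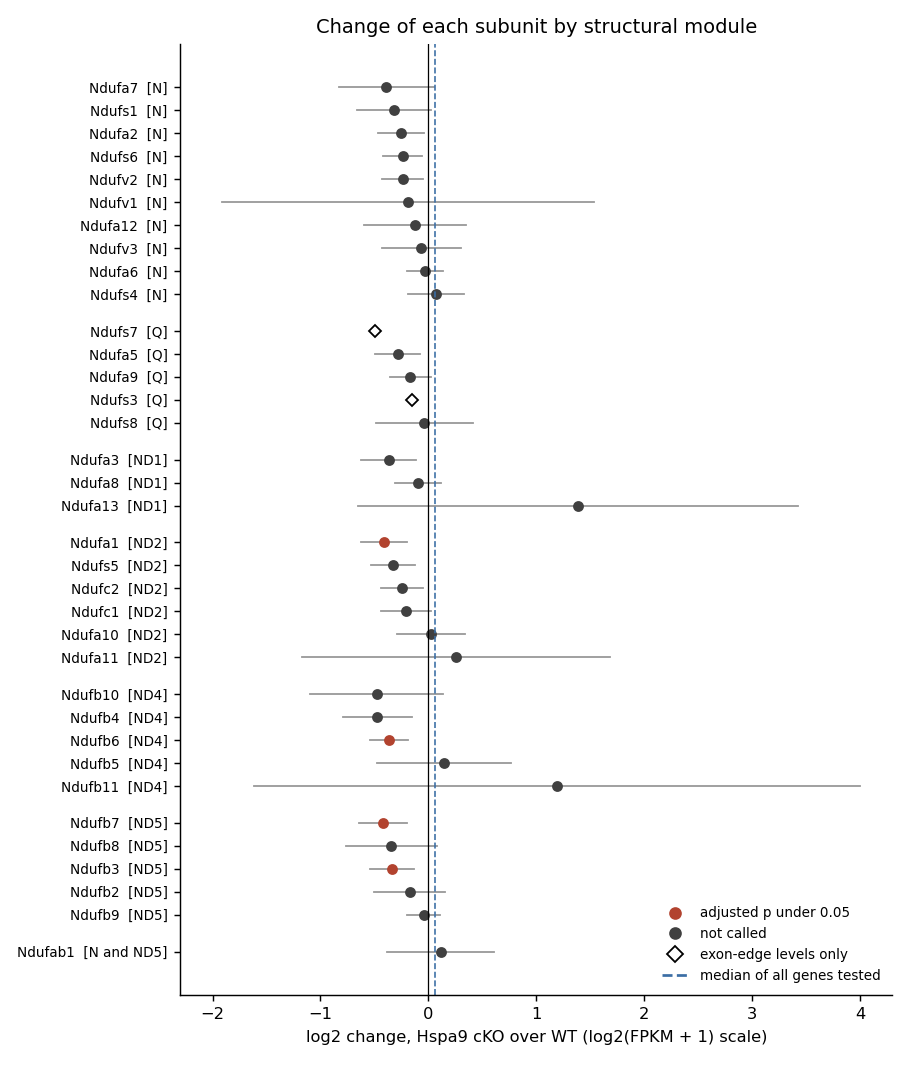
Log2 change of each complex I subunit, Hspa9 cKO over WT, by structural module (the letters in brackets). Points are limma estimates, grey lines their 95% confidence intervals, red points the 4 subunits with an adjusted p under 0.05, and open diamonds Ndufs7 and Ndufs3, drawn from exon-edge levels because their start sums could not be tested. Most points lie left of the median of all genes, 0.06 (dashed line), and the widest intervals belong to Ndufb11, Ndufa13, Ndufv1 and Ndufa11.

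By module, the 4 calls by gene ID lay in ND2, ND4 and ND5, but this placement depended on the processing. With length and GC trends removed, Ndufa2 and Ndufv2 of the N module, Ndufa5 of the Q module and Ndufa3 of the ND1 module also passed as lower (adjusted p = 0.0444, 0.0458, 0.0365 and 0.0409). With trimmed-mean rescaling, Ndufs6 of the N module, Ndufa5 and Ndufa3 did (adjusted p = 0.0447, 0.0457 and 0.0440). The ND5 module had 2 called of 5 tested with a median log2 change of -0.33, the ND4 module 1 of 5 with -0.36, and the ND2 module 1 of 6 with -0.23. The N module had 0 called of 10 with a median of -0.21, the Q module 0 of 3 with -0.17 and the ND1 module 0 of 3 with -0.10; at an unadjusted p under 0.05 these held 3, 1 and 1 lower subunits (limma). Core subunits (0 called of 4) and accessory subunits (4 of 29) had the same median, -0.21. By gene family, Ndufb had 3 called of 10 with a median of -0.34, Ndufa 1 of 12 with -0.15, Ndufc 0 of 2 with -0.23, Ndufs 0 of 5 with -0.24 and Ndufv 0 of 3 with -0.19. The difference between modules or families was not tested.

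In the NADH-oxidising N module, 9 of the 10 subunits had a negative change and 0 passed the test (limma). Ndufv1, the flavin-bearing subunit where NADH is oxidised, had 33.0, 11.7 and 43.4 FPKM in Hspa9 cKO replicates 1, 2 and 3, against 41.3, 11 and 55.2 FPKM in WT replicates 1, 2 and 3. Replicate 2 of both groups was far below the other libraries, and the log2 change of -0.19 had a standard error of 0.71, wider than any change seen in the called subunits. Ndufv2, the iron-sulphur subunit beside it, had 37.1, 39.2 and 40.4 FPKM in Hspa9 cKO libraries, against 44.3, 44.3 and 49.6 FPKM in WT libraries, without overlap (log2 change -0.24, adjusted p = 0.1001). Ndufs1, the large iron-sulphur subunit of this arm, had 27.4, 22.1 and 23.5 FPKM in Hspa9 cKO libraries, against 28.1, 27.5 and 36.7 FPKM in WT libraries (log2 change -0.32, adjusted p = 0.184). Its groups did not overlap from starts, but the sums of its transcript ends gave a log2 change of -0.08. The zinc-binding subunit Ndufs6 (-0.24) and Ndufa2, which has a thioredoxin-like fold (-0.25), were also lower in all 3 Hspa9 cKO libraries without passing the test. Ndufa7 had -0.39, Ndufa12 -0.12 and the small tip subunit Ndufv3 -0.07, all with overlapping groups. Ndufs4, an accessory subunit at the base of the module, had 16.0, 15.9 and 14.4 FPKM in Hspa9 cKO libraries, against 13.7, 13.5 and 16.8 FPKM in WT libraries. Its groups overlapped (log2 change 0.07, standard error 0.107, adjusted p = 0.686).

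In the ubiquinone-binding Q module, the 3 tested subunits had small negative changes. Ndufa5 had 20.96, 20.4 and 21.5 FPKM in Hspa9 cKO libraries, against 24.3, 24.7 and 28.5 FPKM in WT libraries (log2 change -0.29, adjusted p = 0.0784), and Ndufa9, which binds NADPH, had -0.17. Both lay lower in all 3 Hspa9 cKO libraries. Ndufs8, an iron-sulphur core subunit, had 58.2, 70.5 and 61.6 FPKM in Hspa9 cKO libraries, against 73.1, 48.9 and 76.4 FPKM in WT libraries, with overlapping groups and a log2 change of -0.04.

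The remaining 2 core subunits of the Q module had no usable start sums under their own gene ID. Ndufs7 carries the last iron-sulphur cluster before ubiquinone. Its starts are listed in the tables within a locus under the ID of its neighbour Dazap1, so it was not found by gene ID and is absent from the counts above. When events were assigned by the exon edge they name, a choice made after seeing the data, Ndufs7 (mm10 chromosome 10, 80249121 to 80256794, plus strand) had 35.8, 32.4 and 38.2 FPKM in Hspa9 cKO replicates 1, 2 and 3, against 50.3, 47.0 and 53.7 FPKM in WT replicates 1, 2 and 3. All 3 Hspa9 cKO libraries lay below all WT libraries, and with these levels it passed the test (log2 change -0.49, standard error 0.092, limma adjusted p = 0.0215). The call was kept without WT replicate 2 (adjusted p = 0.0384) and lost without any other single library, with adjusted p between 0.0505 and 0.0675. The replicate block also lost it (adjusted p = 0.0554). Trimmed-mean rescaling, median-ratio rescaling and removal of length and GC trends kept it (limma adjusted p = 0.0139, 0.0147 and 0.0170). Its 2 starts shared the total differently in each library: the upstream one held 47.1%, 4.02% and 91.9% in Hspa9 cKO libraries and 34.0%, 56.1% and 63.5% in WT libraries, while the sum of both varied little within a group. Ndufs3 was found, but its starts, at a mean of 0.212 FPKM, were below the filter of 1 FPKM in 3 libraries; its ends had 8.50, 9.73 and 8.07 FPKM in Hspa9 cKO libraries, against 10.5, 7.99 and 11.3 FPKM in WT libraries (log2 change -0.15, adjusted p = 0.516). With exon-edge levels for all genes, 35 subunits were tested, 5 passed as lower against a background of 5.54% (8.50% higher), and the median log2 change was -0.24.

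In the ND1 module, which joins the arms, Ndufa3 was closest to the threshold. This small membrane subunit had 29.0, 24.3 and 29.1 FPKM in Hspa9 cKO libraries, against 36.4, 32.5 and 38.2 FPKM in WT libraries, without overlap (log2 change -0.37, standard error 0.105, limma adjusted p = 0.0689). Ndufa8, with disulphide-bonded helices on the intermembrane side, had -0.10. Ndufa13, also known as GRIM-19, had starts listed at 9.07, 12.5 and 4.61 FPKM in Hspa9 cKO libraries, against 8.89, 0 and 3.32 FPKM in WT libraries. These values spread widely, with a log2 change of 1.38, a standard error of 0.839 and an adjusted p of 0.313. Its end sums, at a mean of 33.1 FPKM in Hspa9 cKO libraries and 31.8 FPKM in WT libraries, had a log2 change of 0.06, and the ends did not show the positive change of the starts.

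In the ND2 module, Ndufa1 fell. Ndufa1 is a small membrane subunit (mm10 chromosome X, 37187588 to 37191163, minus strand) with 3 exons and a transcript of 419 nucleotides. It had 47.1, 45.2 and 51.8 FPKM in Hspa9 cKO replicates 1, 2 and 3, against 62.7, 60.7 and 69.4 FPKM in WT replicates 1, 2 and 3. The highest Hspa9 cKO library lay below the lowest WT library (log2 change -0.41, standard error 0.088, limma adjusted p = 0.0315). Ndufs5, an accessory subunit on the intermembrane side, had 39.2, 33.8 and 36.2 FPKM in Hspa9 cKO libraries, against 44.4, 44.4 and 48.6 FPKM in WT libraries. It narrowly missed the threshold from starts (log2 change -0.33, standard error 0.085, adjusted p = 0.0537) and passed from end sums with the same log2 change (adjusted p = 0.0475). Its end values equalled its start values in every library, so both results rest on the same values and only the other genes in the fit differed. Ndufc2 (-0.24) and Ndufc1 (-0.21) were lower in all 3 Hspa9 cKO libraries and did not pass. Ndufc1 had 8.54, 7.56 and 8.06 FPKM in Hspa9 cKO libraries, against 9.08, 9.002 and 10.3 FPKM in WT libraries, but its end sums had a log2 change of 0.13, with ends listed at only 2.47 FPKM in WT replicate 3 and 4.36 FPKM in Hspa9 cKO replicate 2. Ndufa10, with a nucleoside kinase fold, had 0.02. Ndufa11 had 62.9, 55.3 and 54.5 FPKM in Hspa9 cKO libraries, against 85.0, 17.1 and 74.2 FPKM in WT libraries. WT replicate 2 alone lay far below the rest, and the log2 change was 0.26 with it and -0.46 without it (adjusted p = 0.799 and 0.0620).

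In the ND4 module, Ndufb6 fell and had the smallest adjusted p of all subunits tested by gene ID. Ndufb6 (mm10 chromosome 4, 40270591 to 40279421, minus strand) has 4 exons and a transcript of 659 nucleotides. It had 37.1, 38.2 and 37.6 FPKM in Hspa9 cKO replicates 1, 2 and 3, against 47.0, 51.9 and 47.4 FPKM in WT replicates 1, 2 and 3. The Hspa9 cKO libraries were nearly equal and all below WT (log2 change -0.36, standard error 0.071, limma adjusted p = 0.0245). Ndufb4 had 17.8, 16.3 and 15.6 FPKM in Hspa9 cKO libraries, against 25.6, 19.2 and 25.7 FPKM in WT libraries. The groups did not overlap, but WT replicate 2 lay nearer to Hspa9 cKO (log2 change -0.47, standard error 0.132, adjusted p = 0.0655; adjusted p = 0.0256 without WT replicate 2). RefSeq lists the copies Ndufb4b and Ndufb4c, and how reads were divided among them is unknown, so the level of Ndufb4 is uncertain. Ndufb10, on the intermembrane side, had -0.48 with a standard error of 0.253, with WT replicate 3 at 114.5 FPKM against 66.3 and 57.3 FPKM in the other WT libraries; without WT replicate 3 it had -0.19 (adjusted p = 0.313). Ndufb5 had 0.14, and -0.16 without WT replicate 1, the lowest library at 23.7 FPKM. Ndufb11 had starts at 11.4, 19.8 and 15.0 FPKM in Hspa9 cKO libraries, against 15.1, 20.5 and 0 FPKM in WT libraries (log2 change 1.19, standard error 1.153, adjusted p = 0.527). Those starts matched no annotated exon edge, and its ends, at 54.7, 66.7 and 54.3 FPKM in Hspa9 cKO libraries, against 65.1, 71.6 and 68.6 FPKM in WT libraries, gave -0.23 (adjusted p = 0.177).

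In the ND5 module at the far end of the membrane arm, all 5 subunits had a negative change and both Ndufb7 and Ndufb3 fell. Ndufb7, an intermembrane-side subunit (mm10 chromosome 8, 83566671 to 83571626, plus strand; 3 exons, transcript of 623 nucleotides), had the highest mean level of all subunits. It had 81.7, 85.9 and 89.0 FPKM in Hspa9 cKO replicates 1, 2 and 3, against 112, 106 and 128 FPKM in WT replicates 1, 2 and 3. The groups did not overlap (log2 change -0.42, standard error 0.091, limma adjusted p = 0.0317). Ndufb3 (mm10 chromosome 1, 58586384 to 58595964, plus strand; 3 exons, transcript of 763 nucleotides) had 54.3, 50.9 and 52.2 FPKM in Hspa9 cKO libraries, against 63.3, 63.0 and 73.3 FPKM in WT libraries. It was the call nearest to the threshold (log2 change -0.33, standard error 0.084, limma adjusted p = 0.0496). Ndufb8 had -0.34 from starts and -0.51 from ends (adjusted p = 0.236 and 0.0511). Ndufb2 had -0.17, but 26.6% of its start sum came from starts of the neighbouring Adck2 or of no annotated edge, and its own starts gave -0.38 (adjusted p = 0.149). Ndufb9, of the LYR family, was the second highest subunit at 89.7, 94.2 and 94.1 FPKM in Hspa9 cKO libraries, against 94.4, 93.4 and 98.8 FPKM in WT libraries. Its groups overlapped (log2 change -0.04; 0.12 from ends, which were listed at means of only 6.97 and 6.25 FPKM). Of its start sum, 7.17% came from starts of Rnf139 or of no annotated edge.

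**Figure D2:**
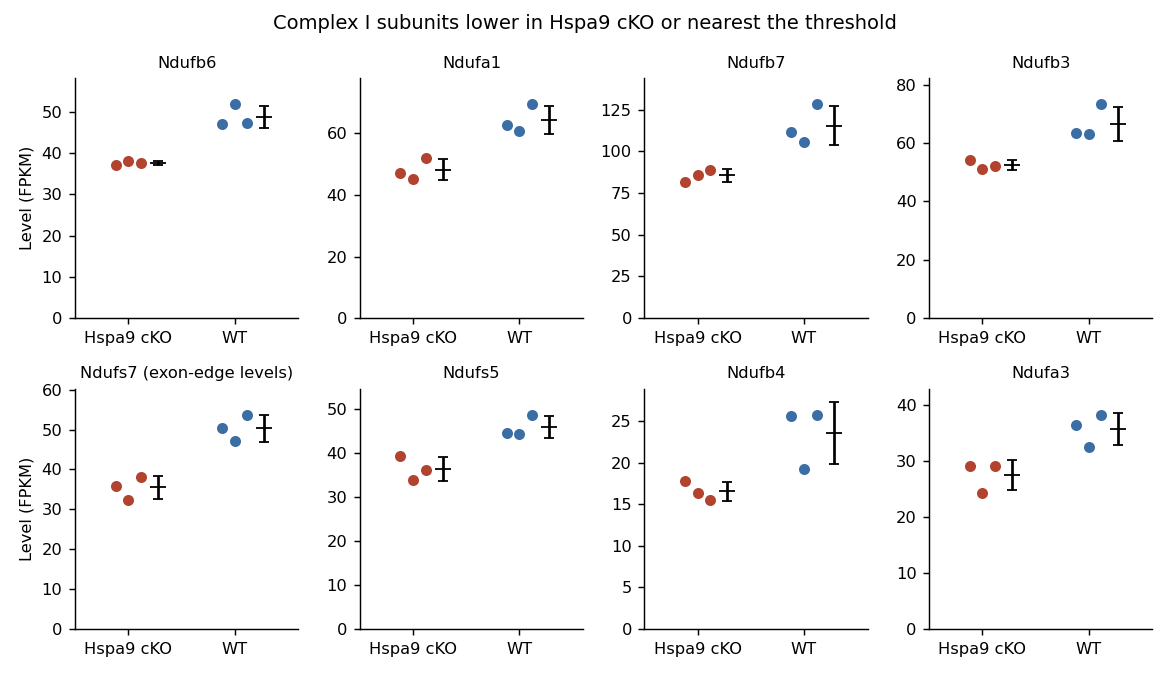
Level in FPKM of the 4 subunits called lower, of Ndufs7 from exon-edge levels, and of the 3 subunits nearest the threshold, in each Hspa9 cKO library (red, left) and each WT library (blue, right); black bars give mean ± SD, n = 3. In each panel all Hspa9 cKO points lie below all WT points; in the Ndufb4 panel WT replicate 2, at 19.2 FPKM, is nearest to the Hspa9 cKO points.

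Upstream sequence is shown for the 4 subunits called by gene ID, since they moved together and their starts are known. The windows are the 250 bases before the RefSeq start of each gene (GRCm38.p6), written in the direction of transcription, with matches to the searched motifs in capitals. They lie at chrX:37191239-37191488 (minus strand, Ndufa1), chr1:58586147-58586396 (plus strand, Ndufb3), chr4:40279422-40279671 (minus strand, Ndufb6) and chr8:83566508-83566757 (plus strand, Ndufb7).
Ndufa1: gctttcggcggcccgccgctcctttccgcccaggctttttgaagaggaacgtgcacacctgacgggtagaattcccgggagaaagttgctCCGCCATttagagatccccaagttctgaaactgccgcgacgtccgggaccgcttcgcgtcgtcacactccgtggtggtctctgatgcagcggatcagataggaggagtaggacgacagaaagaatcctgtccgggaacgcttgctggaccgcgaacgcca
Ndufb3: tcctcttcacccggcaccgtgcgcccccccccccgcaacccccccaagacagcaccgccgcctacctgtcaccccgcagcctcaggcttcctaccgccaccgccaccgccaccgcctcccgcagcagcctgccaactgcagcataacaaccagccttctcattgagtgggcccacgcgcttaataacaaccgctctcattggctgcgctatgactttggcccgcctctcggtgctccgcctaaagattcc
Ndufb6: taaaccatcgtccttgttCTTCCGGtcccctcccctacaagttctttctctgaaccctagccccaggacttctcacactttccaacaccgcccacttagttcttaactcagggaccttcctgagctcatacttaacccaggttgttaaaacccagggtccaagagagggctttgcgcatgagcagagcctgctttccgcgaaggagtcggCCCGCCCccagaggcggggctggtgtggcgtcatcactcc
Ndufb7: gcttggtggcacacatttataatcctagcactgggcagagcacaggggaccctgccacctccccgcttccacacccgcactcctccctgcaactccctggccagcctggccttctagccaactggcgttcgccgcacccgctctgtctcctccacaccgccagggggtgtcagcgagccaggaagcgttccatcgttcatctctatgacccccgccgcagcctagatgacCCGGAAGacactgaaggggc
Ndufa1 holds the YY1 letters on the opposite strand 160 bases before the start. Ndufb6 holds the ETS letters on the opposite strand 232 bases before the start and the SP1 letters on the opposite strand 40 bases before it. Ndufb7 holds the ETS letters on the same strand 20 bases before the start, and Ndufb3 holds none of the 4 motifs in this window. The start used in the deposited tables lies 87 bases upstream of the RefSeq start for Ndufb7 and 13 bases upstream for Ndufb3, so the end of those windows is inside the deposited first exon, and 75 and 12 bases downstream for Ndufa1 and Ndufb6. The motifs searched were GCATGCG (NRF1), CCGGAAG (ETS factors such as GABPA), ATGGCGG (YY1) and GGGCGGG (SP1), on both strands, in windows that run on to 50 bases after the start; matches in the 4 windows shown do not overlap. RefSeq windows were matched for 32 of the 35 subunits; Ndufa2, Ndufb9 and Ndufs1 had none. The YY1 letters were in 8 of the 32 (25%), among them Ndufa5, Ndufa9, Ndufs4, Ndufs6 and Ndufs7, against 9.03% of the windows of tested genes and 4.05% of all windows. The NRF1 letters were in 3 (9.38%; 6.91% of tested genes), the ETS letters in 4 (12.5%; 20.01%) and the SP1 letters in 12 (37.5%; 47.0%). A match describes the letters and shows no binding.

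The 4 calls kept their direction but mostly not their significance when 1 library was left out. Over these fits the limma adjusted p lay between 0.0510 and 0.0851 for Ndufb6, between 0.0523 and 0.0981 for Ndufa1, between 0.0718 and 0.137 for Ndufb3 and between 0.0401 and 0.0984 for Ndufb7, which passed only without WT replicate 2. Their log2 changes stayed between -0.48 and -0.26 in these fits.

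Some subunits had changes near 0. Ndufa6, a LYR-family subunit of the N module that binds an acyl carrier protein, had 80.7, 87.2 and 86.8 FPKM in Hspa9 cKO libraries, against 85.6, 84.0 and 91.1 FPKM in WT libraries (log2 change -0.03, 95% confidence interval -0.20 to 0.14). The subunits' median, -0.21, lay just outside this interval and outside that of Ndufb9 (-0.19 to 0.11). Whether Ndufa6 and Ndufb9 differ from the other subunits was not tested. Ndufab1, the mitochondrial acyl carrier protein that is part of both ends of the enzyme, had 26.7, 24.7 and 24.3 FPKM in Hspa9 cKO libraries, against 16.6, 26.1 and 29.1 FPKM in WT libraries. Its log2 change was 0.11 from starts, -0.03 from ends and -0.12 without WT replicate 1, the lowest library.

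For most subunits starts and ends gave similar levels. Of the 33 subunits with both sums, 17 had levels equal within 1% and 5 differed by over 1.5 times. Ndufa13, Ndufb11 and Ndufs3 had starts far below their ends, and Ndufb9 and Ndufv3 had ends far below their starts. From end sums 5 of 34 subunits passed as lower, against a background of 5.93% (8.47% higher), and the median log2 change was -0.17. These 5 were Ndufa1, Ndufb3, Ndufb6, Ndufb7 and Ndufs5. Their end values equalled their start values in every library, so for them the ends are no separate measurement. The sign differed between starts and ends for Ndufab1, Ndufb9, Ndufb11 and Ndufc1, of which 0 passed either test (limma).

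**Figure D3:**
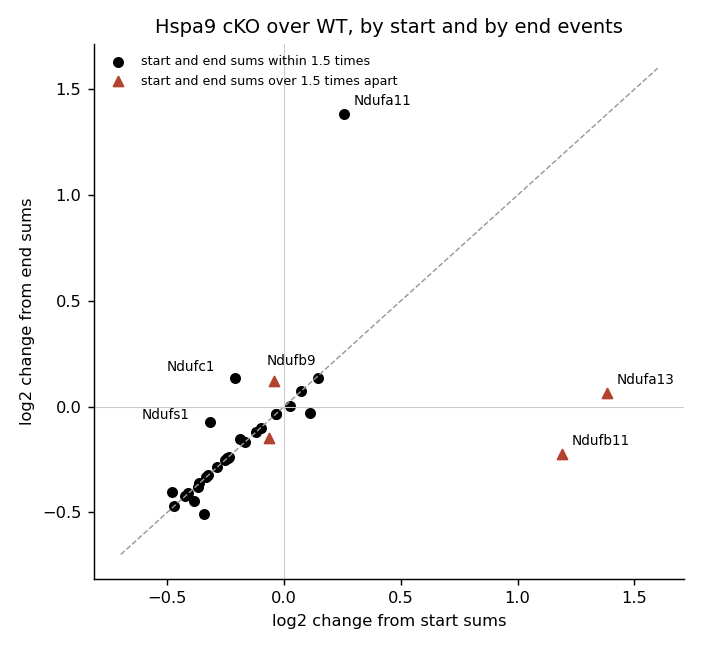
Log2 change (Hspa9 cKO over WT) of the subunits from the sum of their transcript ends against that from the sum of their transcript starts; the dashed line marks equal values. Most subunits lie on the line below 0, among them Ndufa1, Ndufb3, Ndufb6 and Ndufb7, whose end values repeat their start values in every library. Red triangles are subunits whose 2 sums differ by over 1.5 times, among them Ndufa13 (1.38 from starts, 0.06 from ends) and Ndufb11 (1.19 and -0.23). Ndufa11 (0.26 and 1.38) is a black point off the line. Its 2 sums are within 1.5 times, and its WT replicate 2 was low at both.

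Complex I subunits have short transcripts, and short transcripts were slightly lower as a class. The 33 subunits had a median transcript length of 875 nucleotides and 4 exons, against 2861 nucleotides and 9 exons over all genes tested. The log2 change had a Spearman correlation with length of 0.10 over all genes (n = 9198) and of 0.45 over the subunits (n = 33); genes and subunits share the same libraries, and no p is given. The 787 other genes of up to 1000 nucleotides had a median log2 change of -0.04, with 7.24% called lower. The subunits lay below this: the 13 with 501 to 750 nucleotides had a median of -0.33 with 2 called, against -0.07 and 11.8% called for all genes of that class. The 5 with 751 to 1000 nucleotides had -0.29, against -0.04. The 10 with 1001 to 2000 nucleotides had -0.09 with 0 called, against 0.01 for all genes of that class. With the dependence on length and GC content taken out of each library, 10 subunits passed as lower against a background of 8.88% (6.24% higher; 816 genes lower and 574 higher), and the median was -0.23, against -0.02 over all genes. The Spearman correlation with length was then 0.02 over all genes (n = 9194) and still 0.32 over the subunits (n = 33).

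**Figure D4:**
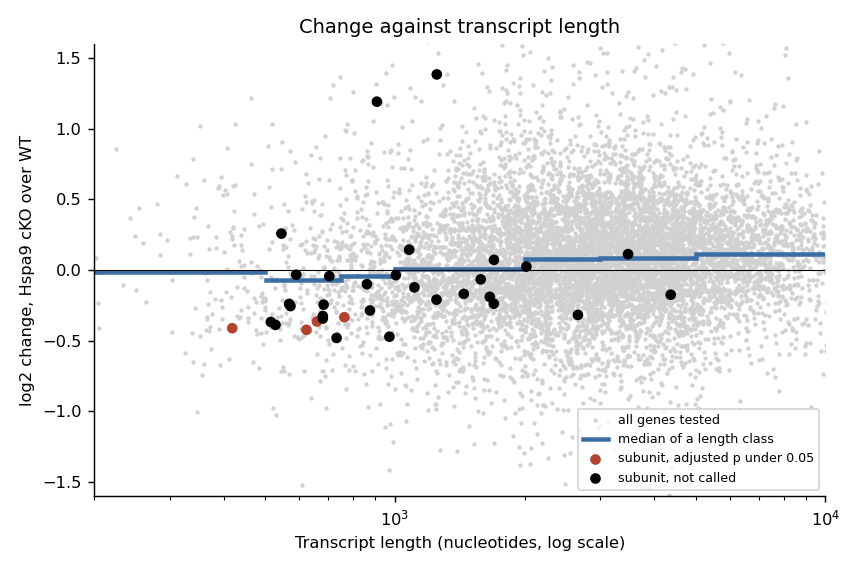
Log2 change (Hspa9 cKO over WT) against transcript length on a log axis for all genes tested (grey; genes beyond the axes are not drawn), with the median of each length class (blue bars) and the 33 complex I subunits (black; red where called). Most subunits under 1000 nucleotides lie below the blue bars of their class, which run between -0.07 and 0.01 up to 2000 nucleotides.

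No splicing difference in the subunits passed the test. Of 22 pairs of inclusion and exclusion events in 11 subunit genes, 0 passed the test on their ratio (limma over 10407 pairs, of which 0.192% passed), and 1, in Ndufa7, had an unadjusted p under 0.05, against 9.04% of all pairs. The same test did not call the loss of exons 2 to 4 of Hspa9 itself (log2 ratio change -5.90, adjusted p = 0.220), so a lack of calls says little about the subunits. Ndufv3 has a long alternative exon; it was included in 19.1%, 27.1% and 25.9% in Hspa9 cKO libraries, against 16.6%, 16.8% and 17.4% in WT libraries. The groups did not overlap, but the change did not pass (adjusted p = 0.561). Ndufs1 is listed with 2 first exons that begin at the same base and differ in length; the longer one held 90.7%, 57.6% and 49.6% of its FPKM in Hspa9 cKO libraries, against 86.6%, 93.7% and 89.6% in WT libraries; Hspa9 cKO replicate 1 lay among the WT values, and the share was not tested.

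Several subunit genes share sequence with a neighbour, and whether counting was strand-specific is not stated in the labels, so reads of opposite genes may not be told apart. Of the 35, 14 overlap another annotated protein-coding or long noncoding gene, and 12 overlap one on the opposite strand. Ndufb6 shares 350 bases with Smim27 on the opposite strand, which stood at a mean of 3.77 FPKM with a log2 change of 0.14. Ndufb11 shares 117 bases with Rbm10, at 27.9 FPKM and 0.33, and Ndufs6 shares 30 bases with Mrpl36, at 43.9 FPKM and -0.24; neither of these neighbours passed the test. Ndufa1, Ndufb3, Ndufb7 and Ndufs7 overlap no such gene.

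Medians of the other respiratory complexes were also negative. Of the genes of complex IV, cytochrome c oxidase, 6 of 8 tested passed as lower with a median log2 change of -0.55; Cox7a2 had -0.59 (adjusted p = 0.00763) and Cox7c -0.50 (adjusted p = 0.0274). Complex V, the ATP synthase, had 4 of 12 lower and a median of -0.34, with -0.48 for the alpha subunit Atp5a1 and -0.50 for the beta subunit Atp5b. Complex II, succinate dehydrogenase, had 2 of 4 lower and a median of -0.35, with -0.54 for the iron-sulphur subunit Sdhb and -0.41 for the membrane anchor Sdhd. Complex III had 0 of 7 called and a median of -0.25, with 2 lower at an unadjusted p under 0.05 (limma). With exon-edge levels complex IV had 5 of 9 lower and a median of -0.50 (limma). Cox7b, called by gene ID (-0.84), then had 2.27 (adjusted p = 0.298). Cox6c lost its call (adjusted p = 0.0588) and Ndufa4, uncalled by gene ID, passed as lower (-0.64, adjusted p = 0.0138). Complexes V, II and III then had 4 of 13, 2 of 4 and 0 of 8 lower. In complex V, Atp5h lost its call (-0.72 by gene ID, then -0.27, limma adjusted p = 0.309). Atp5k, uncalled by gene ID (-0.16), passed as lower (-0.79, limma adjusted p = 0.0110). The median of complex I was the nearest to 0 of the 5 complexes; the differences between complexes were not tested.

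The factors that build complex I had a median close to that of all genes. Of 16 assembly factors tested, 0 passed as lower and 1 as higher (limma; 0 lower and 2 higher at an unadjusted p under 0.05), with a median log2 change of 0.03. The factor that passed, Foxred1, an oxidoreductase-like assembly factor, had 13.2, 15.4 and 12.9 FPKM in Hspa9 cKO libraries, against 8.76, 9.19 and 10.3 FPKM in WT libraries (log2 change 0.51, adjusted p = 0.0296). All 3 Hspa9 cKO libraries lay above all WT libraries. The early assembly factors Ndufaf1 and Timmdc1 both had 0.20, and Nubpl, which is thought to deliver iron-sulphur clusters to complex I, had -0.28. Genes of iron-sulphur cluster assembly, in which GRP75 itself takes part, had 0 of 12 called and a median of 0.03 (limma; 1 lower at an unadjusted p under 0.05). Other enzymes that reduce ubiquinone had 0 lower and 1 higher of 5, with a median of 0.01; the one higher was Etfdh, which passes electrons from fatty acid oxidation (0.51, adjusted p = 0.0466). Of 10 regulators of respiratory chain genes, Gabpb1, a subunit of the ETS factor complex GABP, rose (0.45, adjusted p = 0.0297) and 9 did not pass; Nrf1 had 0.07, Gabpa -0.03, Yy1 -0.03 and Tfam -0.04. The 7 complex I subunits encoded in mitochondrial DNA are not analysed here.

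**Figure D5:**
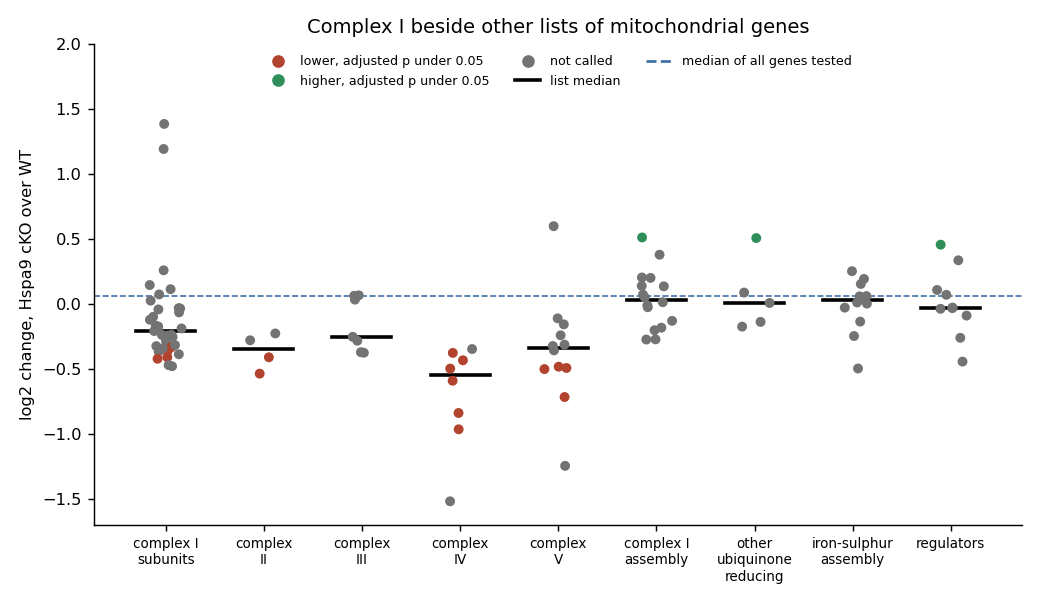
Log2 change (Hspa9 cKO over WT) of each tested gene of complex I, of the other respiratory complexes and of related lists; black bars are list medians, red and green points genes called lower and higher, and the dashed line the median of all genes, 0.06. The medians of complexes I to V lie between -0.55 and -0.21, and those of assembly factors, other ubiquinone-reducing enzymes, iron-sulphur assembly and regulators between -0.03 and 0.03.

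Markers of developmental stage and of other cells moved in the same libraries. Of 10 DN3 marker genes, 6 were higher in Hspa9 cKO and 0 lower, with a summed level of 1572 to 1988 FPKM in Hspa9 cKO libraries and 1085 to 1689 FPKM in WT libraries; Il2ra, the CD25 used in the sort, had a log2 change of 1.30 and Dtx1 1.45. Cd8b1, a marker of double-positive thymocytes, had 2.12, 2.71 and 2.08 FPKM in Hspa9 cKO libraries, against 6.36, 5.81 and 6.03 FPKM in WT libraries, and was lower (log2 change -1.10, limma adjusted p = 0.0045). Cd8a, another such marker, did not pass (log2 change -0.37, limma adjusted p = 0.166). Neither did Trac, tested only with exon-edge levels (log2 change -0.24, adjusted p = 0.351). Cd4, below the filter, averaged 0.749 FPKM in Hspa9 cKO libraries and 0.452 FPKM in WT libraries. The proliferation genes Mki67 and Top2a, chosen after their values were seen, had log2 changes of -0.75 and -1.05. Of 6 erythroid genes, Hba-a2 and Hbb-bt were tested and both lower, with a summed level of 37.6 to 46.1 FPKM in Hspa9 cKO libraries and 63.1 to 76.6 FPKM in WT libraries. Hbb-bs could be tested only with exon-edge levels and had -0.02 (adjusted p = 0.977). Of the tested markers of natural killer, B and thymic epithelial cells, 1 each passed as higher: Nkg7, Cd79b and Epcam. Of progenitor, myeloid and gamma-delta T cell markers, 0 of 2, 0 of 1 and 0 of 4 passed (limma; 0, 0 and 0 at an unadjusted p under 0.05). With exon-edge levels the gamma-delta gene Tcrg-C1 passed as higher (log2 change 0.66, adjusted p = 0.00752; -0.21 by gene ID). The part of these differences in the lower complex I levels was not tested.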

How the data were processed

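RNA sequencing of DN3 thymocytes from Hspa9 cKO and WT mice gave 3 libraries per group, grouped by sample title. The submitters' processing notes name cutadapt 1.9.1 and the build mm10. No aligner, assembler, event caller or strandedness is named in the labels. Each table, per the file headers, lists transcript-structure events with an FPKM value that the authors deposited. These values depend on how reads were divided among isoforms. Events that a table does not list were set to 0, which can be a failed estimate.

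Start events were summed by gene ID to give gene levels (ends where a gene has no start), with repeated event numbers dropped. A gene entered the test if 3 or more libraries reached 1 FPKM; log2(FPKM + 1) was then fitted by limma 3.58.1 in R 4.3.3, two-sided, with trended and robust variances and Benjamini-Hochberg adjustment over all genes. A fold change on this scale understates changes of low genes. Transcript lengths, exon edges and overlaps came from GENCODE M21 (mm10) and upstream sequence from RefSeq (GRCm38.p6). Splicing used log2((inclusion + 1)/(exclusion + 1)) for event pairs whose total averaged 5 FPKM or higher. The test was tried on simulated data.

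The subunits and gene lists were chosen with earlier results of these data known. Full statistics are given for called subunits and for the 3 uncalled ones per direction that came nearest to the threshold; library values also for the highest subunits and those whose call or sign differs between starts and ends; and of each other list up to 2 called genes per direction. Other genes were named after their values were seen. Alternatives were a replicate block, removal of length and GC trends, other filters, a pseudocount of 0.1, 2 rescalings, end sums, exon-edge assignment, ordinary variances and leaving out each library. The list of double-positive thymocyte markers is not reported here as a whole.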

Additional observations from a re-analysis of the deposited data

How the results depend on the processing

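The median log2 change of the subunits stayed between -0.27 and -0.17 under all 18 alternatives, and 0 subunits were called higher under any (limma; 0 or 1 at an unadjusted p under 0.05). The count called lower, 4, became 10 with length and GC trends removed, 10 with trimmed-mean rescaling and 7 with median-ratio rescaling. It lay between 0 and 2 when 1 library was left out, with 10 to 15 lower at an unadjusted p under 0.05; over all genes these fits called 202 to 323 lower and 233 to 514 higher. The labels do not say whether replicate numbers pair the samples. Deviations of same-numbered libraries correlated at 0.02, -0.02 and -0.02 over 9198 genes, and those of other library pairs between -0.04 and 0.06. A correlation over all genes cannot tell whether same-numbered libraries share a batch that acts on some genes. With the replicate block 0 subunits were called lower (12 at an unadjusted p under 0.05), with 84 genes lower and 161 higher in all. The replicate block with length and GC trends removed called 0 subunits (16 unadjusted), with 226 genes lower and 191 higher, and trend removal alone called 816 genes lower. The cause of these shifts was not tested. Of the values of single subunits under these settings, 514 kept direction and call status, called or uncalled. A call was lost in 35, gained in 18, and 27 uncalled values changed sign. The lost calls all belonged to the 4 called subunits. Of the 18 alternatives, 11 kept the call of Ndufb7, 10 that of Ndufb6, 10 that of Ndufa1 and 6 that of Ndufb3. End sums are 1 of these alternatives and repeat the start values of these 4 subunits. Of the leave-one-out fits, 1 kept Ndufb7, and Ndufb3 lost its call under several other settings too. With no counts, depth is unknown, and subunits with 1 or 2 deviating libraries (Ndufa11, Ndufv1, Ndufb5, Ndufb10) had wide intervals.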
